A study of Homo sapiens with 6 samples.

Results

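The genes described here are the WNT ligands, their Frizzled receptors, the secreted inhibitors and agonists that act on them, and a small set of pathway components. They were chosen by name: every gene symbol of the WNT, FZD, SFRP, DKK and RSPO families, LGR4, LGR5 and LGR6, and 13 further genes (AXIN1, AXIN2, NKD1, NKD2, LEF1, TCF7, TCF7L1, TCF7L2, CTNNB1, LRP5, LRP6, RNF43 and ZNRF3). The rule gave 57 of the 19923 protein-coding genes in the count tables. The 6 RNA-seq libraries came from Kelly cells, an established human neuroblastoma line labelled as MYCN-amplified and of WT genotype. Of these, 3 libraries came from cells transfected with a control siRNA (siControl) and 3 from cells transfected with an siRNA against METTL3 (siMETTL3), all for 72 hours. METTL3 is the catalytic subunit of the enzyme complex that writes N6-methyladenosine into mRNA, and the comparison asks how its depletion changes gene expression. All 6 libraries are of a single cell line, and the labels do not say whether the replicates were separate cultures, so p-values measure the spread between these libraries, which may be technical.

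WNT proteins are secreted lipid-modified ligands that bind Frizzled receptors together with the co-receptors LRP5 or LRP6. Binding stops the AXIN-containing destruction complex from degrading beta-catenin, the product of CTNNB1, which then enters the nucleus and switches on target genes with the TCF/LEF factors. R-spondins strengthen the signal by binding LGR4, LGR5 or LGR6 and removing the ubiquitin ligases RNF43 and ZNRF3, which otherwise clear Frizzleds from the cell surface. The pathway takes part in forming the neural crest, the embryonic tissue from which neuroblastoma arises.

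Total counts per library ranged from 15430000 (siControl replicate 3) to 21565013 (siMETTL3 replicate 2), and the 57 genes together took between 0.161% and 0.182% of them. METTL3 itself was at 53.5, 52.8 and 56.2 CPM (counts scaled by the normalised library size) in the siControl libraries and at 33, 31.8 and 34.3 CPM in the siMETTL3 libraries. It fell to 61.0% of the control level (log2 fold change -0.71 with a standard error, SE, of 0.0696, edgeR FDR 4.68e-06), with part of its span shared with TOX4. A set of 8 markers of noradrenergic neuroblastoma, such as HAND2 and GATA3, summed to between 2972 and 3425 CPM in siControl and to between 4312 and 4591 CPM in siMETTL3. They did not all move alike: 6 of the 8 were called higher and 1 lower (edgeR FDR under 0.05). Over all tested genes, 18.6% were called higher and 19.2% lower. Markers of mesenchymal cells summed to at most 197 CPM and those of Schwann cells (4 of the 5 listed), endothelial and epithelial cells to at most 9.84 CPM in any library. Of the 10 mesenchymal markers 7 were tested, and 3 were called higher and 1 lower. The 5 leukocyte markers summed to at most 0.603 CPM, with AIF1 at 0 everywhere. The Schwann list lay between 5.38 and 5.81 CPM in siControl and between 6.52 and 8.65 CPM in siMETTL3, and the endothelial list between 5.64 and 7 CPM and between 7.14 and 9.84 CPM. In the same fit, 1 of the 3 tested endothelial markers and 0 of the 3 tested Schwann markers were called higher, and 0 of either list lower. Whether these differences in markers contributed to the changes described below was not tested.

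Promoter sequences are shown for the 4 genes with a log2 fold change of at least 0.9 in size, a call that held in every alternative analysis, and an entry in the RefSeq promoter table (GRCh38.p14), which held 39 of the 57 genes. They are RSPO1, WNT6 and TCF7L1, which were higher in siMETTL3, and DKK1, which was lower. Each sequence is the 250 bases before the gene's start, 5′ to 3′ on the gene's strand, and capitals mark TCF/LEF words or a TATA box. RSPO1 is at chr1:37634893-37635142 (minus strand), WNT6 at chr2:218859555-218859804 (plus), TCF7L1 at chr2:85133142-85133391 (plus) and DKK1 at chr10:52314031-52314280 (plus).
RSPO1: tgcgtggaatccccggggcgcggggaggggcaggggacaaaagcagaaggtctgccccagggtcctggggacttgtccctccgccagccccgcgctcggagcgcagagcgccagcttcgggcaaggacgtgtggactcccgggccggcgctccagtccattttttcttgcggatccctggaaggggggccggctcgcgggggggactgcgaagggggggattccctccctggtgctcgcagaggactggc
WNT6: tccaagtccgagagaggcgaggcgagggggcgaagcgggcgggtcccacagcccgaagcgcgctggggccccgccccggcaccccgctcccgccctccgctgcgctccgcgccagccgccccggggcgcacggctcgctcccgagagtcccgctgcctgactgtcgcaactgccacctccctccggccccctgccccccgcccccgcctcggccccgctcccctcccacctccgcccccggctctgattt
TCF7L1: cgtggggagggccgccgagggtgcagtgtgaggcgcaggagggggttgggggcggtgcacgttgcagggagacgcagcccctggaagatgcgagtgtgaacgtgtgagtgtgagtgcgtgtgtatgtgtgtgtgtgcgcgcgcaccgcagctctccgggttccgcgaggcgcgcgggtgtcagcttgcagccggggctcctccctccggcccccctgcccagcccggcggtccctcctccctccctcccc
DKK1: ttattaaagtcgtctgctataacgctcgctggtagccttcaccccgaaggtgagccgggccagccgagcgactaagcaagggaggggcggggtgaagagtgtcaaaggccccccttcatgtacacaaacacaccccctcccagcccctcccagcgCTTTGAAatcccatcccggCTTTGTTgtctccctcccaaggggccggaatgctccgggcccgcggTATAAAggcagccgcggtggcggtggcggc
The search covered 3 forms of the sequence that TCF/LEF factors bind, on both strands: the word CTTTGAT, the related word CTTTGTT and the word ending in a doubled A, CTTTGAA. It also covered the E-box CACGTG and the TATA box, spelled TATAAA. The matches shown in capitals do not overlap each other. The DKK1 window held the word CTTTGAA, downstream of it the word CTTTGTT, and nearest the gene the TATA box, while the RSPO1, WNT6 and TCF7L1 windows held none of the 5 words. Among all 35116 promoters of the table, 3.80% held CTTTGAA, 4.50% held CTTTGTT, 2.26% held CTTTGAT, 6.34% held CACGTG and 10.7% held TATAAA. At least 1 of the 3 TCF/LEF words was present in 9.97% of all promoters and in 3 of the 48 promoters of the members, those of DKK1, TCF7 and TCF7L2. The G and C content of the 4 windows was 70.8%, 79.2%, 72% and 62.8%, in the order shown, against a median of 58% over all promoters.

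Of the 57 genes, 44 had enough counts to be tested. With edgeR's quasi-likelihood test and a Benjamini-Hochberg adjusted p (FDR) below 0.05, 18 were higher and 4 were lower in siMETTL3. Over all 15311 tested genes, 37.8% passed, 18.6% as higher and 19.2% as lower, so that the members' share was 40.9% higher and 9.09% lower. The median log2 fold change was 0.23 over the 44 members and -0.0021 over all tested genes. In all 22 called members, which were picked for a difference between groups, the 3 libraries of one group lay entirely above the 3 of the other. Over all 44 tested members, the groups were apart in 18 as higher and in 5 as lower, and overlapped in 21. Among all 15311 tested genes, 49.9% had groups that did not overlap, 24.8% as higher and 25.1% as lower. In 1 further member, FZD8, the groups were apart without a call. With all 6 libraries, the largest rises were those of RSPO1, WNT7B, SFRP5, WNT11 and WNT6, and the largest falls among called members those of DKK1 and LGR5. SFRP5, with at most 6 counts in any siControl library, met the count filter only through its siMETTL3 libraries (10 to 16 counts). It could thus be tested only because it was high there, and its call carries little weight. WNT7B met the filter with the help of siMETTL3 libraries, since siControl replicate 3 had 2 counts. A total of 17 calls, 13 higher and 4 lower, held in every alternative analysis that gave a value, and the other 5 (AXIN2, LEF1, FZD4, WNT4 and SFRP5) lost it in at least 1 alternative. In bulk RNA, a change in the share of cells that express a gene and a change in RNA per cell cannot be told apart.

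**Figure D1:**
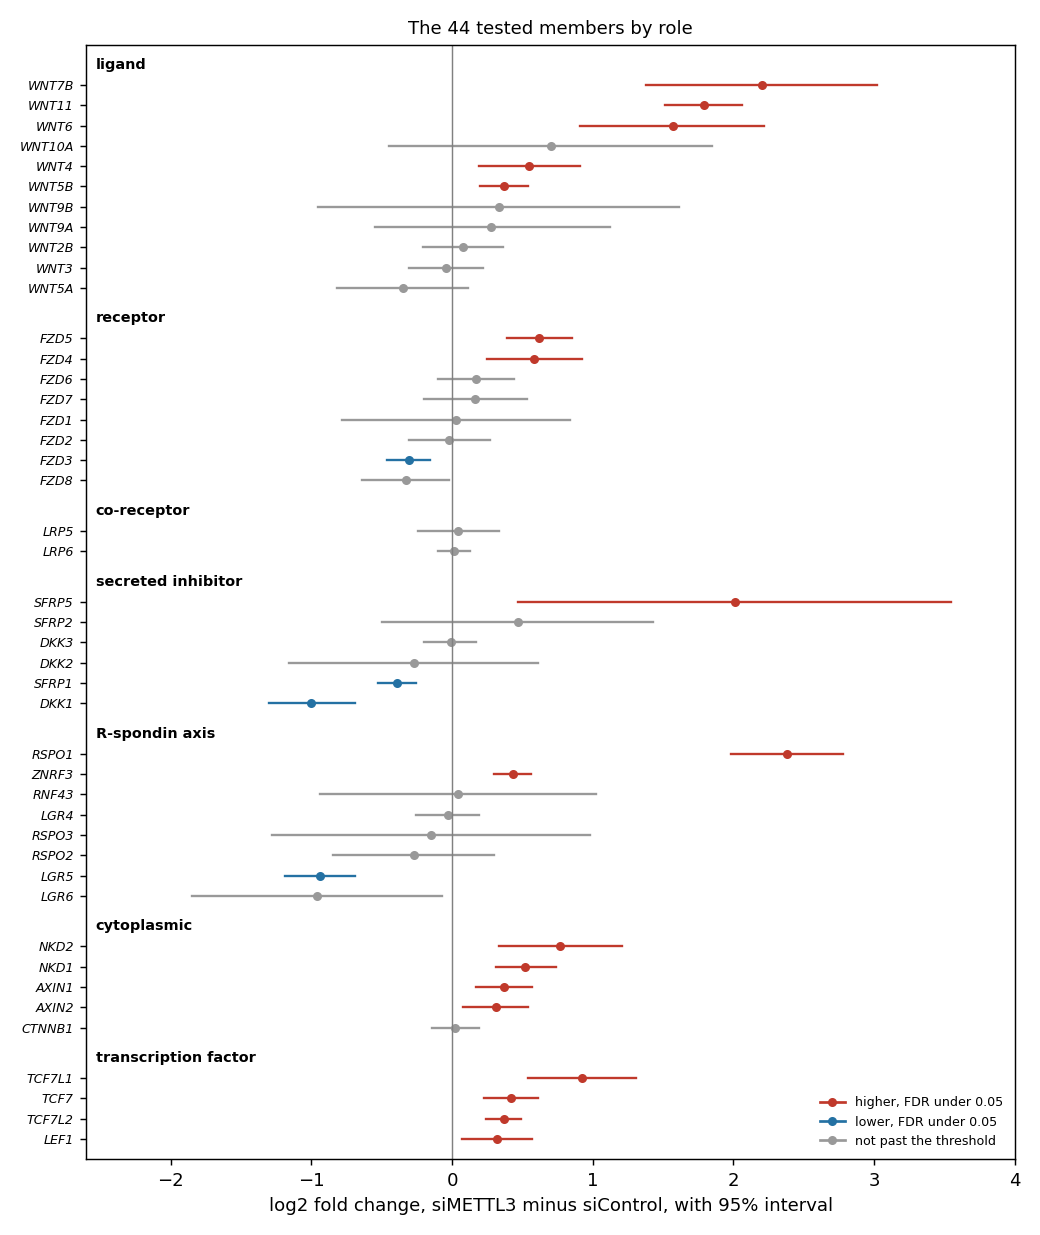
Log2 fold change (siMETTL3 minus siControl, x axis) of the 44 tested genes, grouped by role, with points for the estimate and lines for the 95% interval. The 18 genes in red rose, the 4 in blue fell and the 22 in grey did not pass the threshold; all 4 transcription factors lie to the right of 0.

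**Figure D2:**
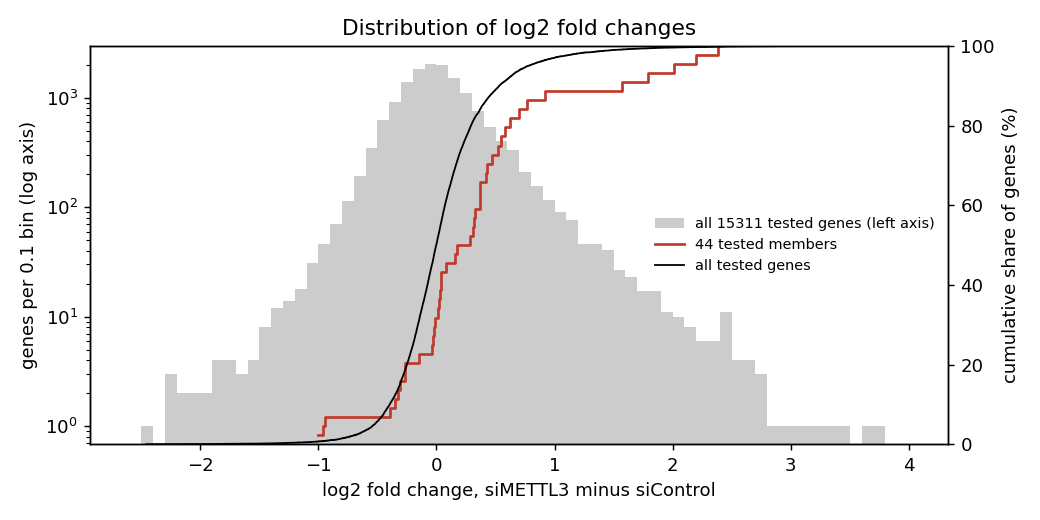
Histogram of the log2 fold changes of all 15311 tested genes (left axis, log scale) with the cumulative share (right axis, %) of all genes in black and of the 44 members in red. The red curve runs to the right of the black curve over most of the range, with medians of 0.23 and -0.0021.

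The WNT ligands were the largest family, with 19 genes, of which 11 were tested, 5 rose and none fell (edgeR FDR under 0.05). Over all genes 18.6% were called higher. WNT11, a ligand known mostly for beta-catenin-independent signalling and cell movement, measured 7.56, 8.11 and 5.44 CPM across siControl against 23.9, 24.1 and 25.7 CPM across siMETTL3. Every siMETTL3 library was therefore far above the highest siControl library. On the log2 scale this was 1.79, SE 0.129, at an edgeR FDR of 3.09e-07, a 3.45-fold rise. WNT11 lies on chromosome 11 (GRCh38) from 76186325 to 76210736.

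WNT7B, a ligand that can signal through beta-catenin, had raw counts of 19, 21 and 2 in siControl and of 63, 82 and 67 in siMETTL3. This was 0.688 ± 0.489 CPM against 3.36 ± 0.363 CPM (SD, n = 3), with siControl replicate 3 far below its group. Its log2 fold change of 2.20 (SE 0.381) passed at an edgeR FDR of 0.000569. The call held without any single library, with log2 fold changes between 1.80 and 2.57 over all alternatives. WNT6, a ligand made in epithelia and linked to neural crest induction, measured 1.53, 0.901 and 0.863 CPM with control siRNA and 2.58, 4.32 and 3.07 CPM with METTL3 siRNA. The groups did not overlap, and the log2 fold change of 1.57 (SE 0.305) had an edgeR FDR of 0.00121. WNT10A, the neighbour of WNT6 on chromosome 2 at a distance of 6.62 kb, had counts of 12, 4 and 4 in siControl and of 8, 12 and 16 in siMETTL3, which overlap, and its log2 fold change of 0.70 (95% interval -0.45 to 1.85) was not past the threshold.

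WNT4, a ligand with roles in kidney and gonad formation, measured 4.08, 4.75 and 3.92 CPM in the control libraries and 5.35, 6.80 and 6.52 CPM after METTL3 siRNA. All siMETTL3 values were above all siControl values, with a log2 fold change of 0.55 and an SE of 0.167 (edgeR FDR 0.0196). The call was lost without siMETTL3 replicate 2 (edgeR FDR 0.0903) or siMETTL3 replicate 3 (edgeR FDR 0.0711), while the alternatives as a whole gave 0.0166 to 0.0903. WNT5B rose from 31.98 ± 1.08 CPM to 41.3 ± 3.16 CPM, with an edgeR FDR of 0.00248 and a log2 fold change of 0.37. Part of its span, 24.4%, overlaps FBXL14 on the opposite strand (log2 fold change 0.20, edgeR FDR 0.0883), and reads of the overlap were counted for both genes.

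The other 6 tested ligands did not pass. WNT5A, the best-known ligand of beta-catenin-independent signalling, measured 3.49 ± 0.785 CPM across siControl against 2.77 ± 0.131 CPM across siMETTL3 (log2 fold change -0.35, 95% interval -0.82 to 0.11). WNT3 and WNT2B, both ligands of the beta-catenin branch, had log2 fold changes of -0.04 (95% interval -0.31 to 0.22) and 0.08 (-0.21 to 0.36). ST7L overlaps 10.5% of the WNT2B span on the opposite strand. It was at 73.3 CPM in siControl against 9.78 CPM for WNT2B, so the WNT2B counts are uncertain. WNT9A and WNT9B had at most 28 counts in any library, and their log2 fold changes were 0.28 (95% interval -0.55 to 1.12) and 0.33 (-0.95 to 1.61). WNT9B lies 0.046 kb from WNT3 on chromosome 17, on the opposite strand. The 8 untested ligands, WNT1, WNT2, WNT3A, WNT7A, WNT8A, WNT8B, WNT10B and WNT16, had at most 8 counts in any library. WNT3A, the ligand most used to activate the pathway in culture, had between 0 and 7 counts.

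Summed over the 19 ligands, the level was 77.5, 75.8 and 66.04 CPM in siControl and 100.1, 111.4 and 108.4 CPM in siMETTL3, a ratio of means of 1.46. The groups did not overlap in this sum. Most of its rise lay in WNT11 (means 7.04 CPM in siControl and 24.56 CPM in siMETTL3) and WNT5B (31.98 and 41.28 CPM). To compare genes with each other, CPM was divided by the length of the canonical transcript (CPM per kb). Since counts cover introns too, this scale is approximate and can raise genes with long introns. WNT5B, WNT3 and WNT11 span 117, 70.6 and 24.4 kb, against transcripts of 2.24, 3.29 and 1.9 kb. The order of ligands given here therefore holds for this scale only. In siControl, WNT5B was the highest ligand at 14.3 ± 0.484 CPM per kb, followed by WNT11 at 3.70 ± 0.741 and WNT3 at 3.70 ± 0.508 CPM per kb. WNT11 and WNT3 overlapped in siControl. In siMETTL3, WNT11 was at 12.9 ± 0.525 CPM per kb, WNT3 at 3.61 ± 0.234 and WNT5B at 18.4 ± 1.41 CPM per kb. Below them in siControl, the ranges of neighbours in the order from WNT4 through WNT2B and WNT6 to WNT5A overlapped pair by pair, as did those from WNT9A to WNT9B.

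**Figure D3:**
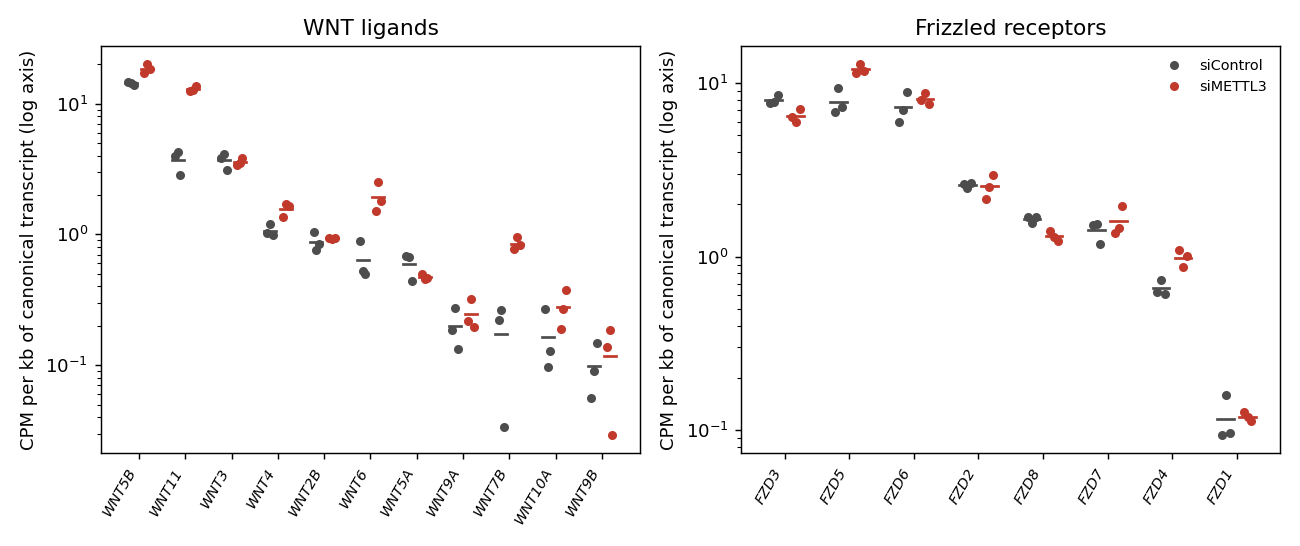
CPM per kb of canonical transcript (log axis) of the tested WNT ligands (left) and Frizzled receptors (right), ordered by the siControl mean, with 1 point per library and a line at the group mean (siControl grey, siMETTL3 red). WNT11 moves from the level of WNT3 in siControl (3.70 CPM per kb) to 12.9 CPM per kb in siMETTL3, and FZD5 from 7.80 to 12.0 CPM per kb. The order of genes holds for this scale only, since counts cover introns.

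Frizzleds are multi-pass membrane receptors that bind WNT through a cysteine-rich domain outside the cell. Of the 10 genes 8 were tested; 2 rose, 1 fell and 5 did not pass. The share called, 37.5%, was close to the 37.8% over all tested genes. FZD5 measured 47.8, 65.9 and 50.9 CPM across siControl against 80.6, 90.0 and 82.1 CPM across siMETTL3. The lowest siMETTL3 library was above the highest siControl library, with a log2 fold change of 0.62 and an SE of 0.105 (edgeR FDR 0.000854). FZD4, which is also the receptor for the ligand Norrin, measured 4.64, 5.41 and 4.51 CPM with control siRNA and 8.02, 6.43 and 7.45 CPM with METTL3 siRNA. The groups were apart (log2 fold change 0.58, SE 0.156, edgeR FDR 0.00938), but the call was lost without siMETTL3 replicate 1 (edgeR FDR 0.0534; from 0.00348 to 0.0534 among the alternatives). Of the FZD4 span, 74.4% lies inside PRSS23 on the opposite strand, which rose as well (log2 fold change 0.35, edgeR FDR 0.0220), and reads of the 2 genes were not separated by strand.

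FZD3, which guides growing axons in development together with planar cell polarity proteins, measured 106, 107.8 and 118.3 CPM in the control libraries and 88.3, 82.0 and 97.1 CPM after METTL3 siRNA. The highest siMETTL3 library was below the lowest siControl library. FZD3 fell by 0.31 on the log2 scale, with an SE of 0.0711 (edgeR FDR 0.00360). FZD8 was lower in every siMETTL3 library than in every siControl library, at 6.67 ± 0.314 and 5.30 ± 0.363 CPM, but did not pass (log2 fold change -0.33, edgeR FDR 0.0904). FZD6, a relative of FZD3, measured 22.3, 25.9 and 33.2 CPM across siControl against 29.9, 32.8 and 28.3 CPM across siMETTL3 (log2 fold change 0.17, edgeR FDR 0.307). Its groups overlapped because of siControl replicate 3, and without that library the log2 fold change was 0.33 (edgeR FDR 0.00544; from 0.00544 to 0.755 among the alternatives). FZD1, FZD2 and FZD7, which are similar in sequence, so that reads may be shared between them, had log2 fold changes of 0.03, -0.02 and 0.16 and did not pass. FZD9 had at most 12 counts, and FZD10 had 0 counts in all 6 libraries, which allows up to 0.0251 CPM over the 119420212 counts of the series (3 counts of the total, counting error only). This limit takes each count as independent, so it is too low where mates of a pair were counted apart.

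On the per-length scale FZD3 (8.04 ± 0.484 CPM per kb), FZD5 (7.80 ± 1.37) and FZD6 (7.28 ± 1.49) had overlapping ranges in siControl and stood above FZD2 (2.59 ± 0.0919), FZD8, FZD7, FZD4 and FZD1, whose ranges were apart from each other. Because counts cover introns, this order depends on the length used. FZD3 and FZD6 span 80.1 and 34.4 kb, against transcripts of 13.8 and 3.73 kb. The spans of FZD5 and FZD2, 7.31 and 3.78 kb, are near their transcript lengths of 7.04 and 3.78 kb. An order by span length was not computed. In siMETTL3 the means were 12.0 ± 0.717 CPM per kb for FZD5, 8.14 ± 0.611 for FZD6 and 6.47 ± 0.549 for FZD3. The summed level of the 10 receptors was 205.3, 229.6 and 230 CPM in siControl and 228.1, 234.1 and 241.1 CPM in siMETTL3, and these ranges overlapped. The co-receptors LRP5 and LRP6 did not pass. LRP6 measured 241.4 ± 5.28 CPM across siControl against 243.2 ± 7.82 CPM across siMETTL3, with a 95% interval of -0.10 to 0.13 for its log2 fold change of 0.01. LRP5 was spread from 105.5 to 155.8 CPM within siControl alone (log2 fold change 0.04, 95% interval -0.24 to 0.33). BCL2L14 overlaps 62.9% of the LRP6 span on the opposite strand.

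The secreted inhibitors bind WNT itself (SFRP) or the co-receptor LRP6 (DKK). Of 8 genes, 6 were tested; 2 fell, 1 rose and 3 did not pass, beside 19.2% lower and 18.6% higher over all genes. DKK1, the founding Dickkopf inhibitor, measured 37.1, 41.1 and 56.1 CPM with control siRNA and 23.3, 20.5 and 23.2 CPM with METTL3 siRNA. All siMETTL3 libraries lay below all siControl libraries, of which replicate 3 was the highest. On the log2 scale this was -1.0, SE 0.138, at an edgeR FDR of 0.000242, which is 50.1% of the siControl level; over all alternatives it went from -1.12 to -0.81. DKK1 lies on chromosome 10 from 52314281 to 52318042 and overlaps no other gene of the table.

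SFRP1, a decoy that binds WNT outside the cell, measured 91.5, 96.4 and 103.1 CPM in the control libraries and 71.2, 73.9 and 76.4 CPM after METTL3 siRNA. The groups were apart, and SFRP1 fell by 0.39 on the log2 scale, with an SE of 0.0634 (edgeR FDR 0.000308). SFRP5 rose from 0, 6 and 2 counts to 16, 11 and 10 counts (log2 fold change 2.01, SE 0.717, edgeR FDR 0.0401). At this depth neither the call nor the size was stable. The log2 fold change was 1.35 without siControl replicate 1 and 3.28 without siControl replicate 2. The call was lost without siControl replicate 1 (edgeR FDR 0.115) and without siMETTL3 replicate 1, 2 or 3 (0.151, 0.0829 and 0.0745), and with no filter on low counts (0.0626), while the alternatives as a whole gave 0.0248 to 0.151. DKK3, a divergent family member, was at 28.5 ± 0.676 and 28.2 ± 2.43 CPM (log2 fold change -0.01, 95% interval -0.20 to 0.17). USP47, at 71.6 CPM in siControl, overlaps 10.6% of the DKK3 span on the opposite strand, so the DKK3 counts are uncertain. DKK2 and SFRP2 did not pass (log2 fold changes -0.27 and 0.47, 95% intervals -1.16 to 0.61 and -0.50 to 1.43). DKK4 and SFRP4, with at most 8 counts, were not tested. The summed level of the 8 genes was 159.8, 167.8 and 189.9 CPM in siControl and 122.6, 127.5 and 131.4 CPM in siMETTL3, a ratio of means of 0.737 with no overlap. Nearly all of this fall lay in SFRP1 (means 97.03 and 73.85 CPM) and DKK1 (44.79 and 22.33 CPM).

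The R-spondin axis held the largest rise among the 44 tested members with all 6 libraries, that of RSPO1. The order was not fixed: WNT7B was above RSPO1 without siControl replicate 1 (2.37 against 2.28), and SFRP5 without siControl replicate 2 (3.28 against 2.70). RSPO1, which encodes a secreted R-spondin, measured 4.13, 6.51 and 3.32 CPM across siControl against 22.5, 27.7 and 23.3 CPM across siMETTL3, from 89, 130 and 50 raw counts to 464, 604 and 479. Every siMETTL3 library was far above every siControl library. Its log2 fold change of 2.38 (SE 0.185) passed at an edgeR FDR of 1.98e-06, a 5.20-fold rise, and it went from 2.21 to 2.70 over all alternatives. RSPO1 lies on chromosome 1 from 37611350 to 37634892, on the minus strand. RSPO2 and RSPO3 did not pass (log2 fold changes -0.27 and -0.15), with 95% intervals of -0.85 to 0.30 and -1.28 to 0.98, and RSPO4, with at most 11 counts, was not tested.

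Among the R-spondin receptors, LGR5, which marks stem cells in several epithelia, went the other way from RSPO1. It measured 24.7, 29.3 and 34.2 CPM with control siRNA and 14.1, 16 and 15.7 CPM with METTL3 siRNA, and the groups were apart. On the log2 scale this was -0.94, SE 0.117, at an edgeR FDR of 3.67e-05, leaving 52.2% of the control level. TSPAN8, which shares 1.43% of the LGR5 span on the opposite strand, fell too (log2 fold change -1.21, from 4.43 to 1.91 CPM). LGR4, the broadly expressed relative, was at 30.8 ± 4.75 and 29.9 ± 0.674 CPM (log2 fold change -0.03, 95% interval -0.26 to 0.19). LGR6 had counts of 26, 28 and 45 in siControl and of 25, 12 and 21 in siMETTL3 (log2 fold change -0.96, edgeR FDR 0.0826). It passed only without siControl replicate 1 (edgeR FDR 0.0236; from 0.0236 to 0.354 among the alternatives).

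ZNRF3, a ubiquitin ligase that removes Frizzleds from the membrane, measured 114.1, 101.5 and 101.7 CPM in the control libraries and 140.9, 143.2 and 143.6 CPM after METTL3 siRNA. The groups were far apart relative to their spread, with a log2 fold change of 0.43 and an SE of 0.0606 (edgeR FDR 0.000105). RNF43, the related ligase, had between 10 and 21 counts in siControl and 16 in each siMETTL3 library (log2 fold change 0.04, 95% interval -0.94 to 1.02). At this depth a change in RNF43 as large as that of ZNRF3 was not detectable. The whole RNF43 span lies inside AC004687.2 on the same strand, so its counts are uncertain; that gene fell (log2 fold change -0.28, edgeR FDR 0.0112).

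Inside the cell, 4 of the 5 cytoplasmic genes rose, beside 18.6% called higher over all genes. NKD1, an inhibitor that binds Dishevelled and is itself switched on by the pathway, measured 35.7, 30.8 and 25.7 CPM across siControl against 43.4, 46.2 and 43.8 CPM across siMETTL3. The groups were apart (log2 fold change 0.52, SE 0.101, edgeR FDR 0.00118). NKD2, its relative, measured 3.89, 2.80 and 2.52 CPM with control siRNA and 5.83, 5.65 and 4.43 CPM with METTL3 siRNA. It rose by 0.77 on the log2 scale, with an SE of 0.206 (edgeR FDR 0.00950). AXIN1, the scaffold of the destruction complex, rose from 27.3 ± 3.63 to 35.5 ± 0.448 CPM, with an edgeR FDR of 0.00676 and a log2 fold change of 0.37.

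AXIN2, the relative of AXIN1 that is used widely as a readout of beta-catenin signalling, measured 20.3, 16.2 and 15.6 CPM in the control libraries and 22.5, 21.4 and 20.9 CPM after METTL3 siRNA. The groups were apart, but by little, since siControl replicate 1 came close to the siMETTL3 libraries. Its log2 fold change of 0.31 (SE 0.109) passed at an edgeR FDR of 0.0364. The call was lost without siControl replicate 2 (edgeR FDR 0.143) or 3 (0.0700) and without siMETTL3 replicate 1, 2 or 3 (0.129, 0.0924 and 0.0726). The range over all alternatives was 0.00226 to 0.143. Of the AXIN2 span, 71.2% is shared with AC004805.1 on the same strand, which was at 11.02 and 13.35 CPM and did not pass (edgeR FDR 0.141). CTNNB1, which encodes beta-catenin, measured 358.9, 367.9 and 443.4 CPM across siControl against 395.9, 379.1 and 412 CPM across siMETTL3. ULK4, which rose (log2 fold change 0.32, edgeR FDR 0.00148), overlaps 20.7% of its span on the opposite strand. The siMETTL3 values of CTNNB1 lay within the siControl range, and the 95% interval of the log2 fold change of 0.02 was -0.14 to 0.19. Without siControl replicate 3, CTNNB1 was just past 0.05 (log2 fold change 0.12, edgeR FDR 0.0486; from 0.0486 to 0.953 among the alternatives).

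The 4 TCF/LEF transcription factors, which carry beta-catenin to its target genes, were all higher in siMETTL3 and all past the threshold, beside 18.6% called higher over all tested genes. TCF7L1, the member known mainly as a repressor, measured 2.92, 2.50 and 2.59 CPM with control siRNA and 5.01, 5.10 and 5.16 CPM with METTL3 siRNA. The spread within both groups was small beside the difference (log2 fold change 0.92, SE 0.179, edgeR FDR 0.00117). TCF7L2 measured 119.6, 109.9 and 107.7 CPM in the control libraries and 145, 147.9 and 142.4 CPM after METTL3 siRNA, a rise of 0.37 on the log2 scale with an SE of 0.0585 (edgeR FDR 0.000276). TCF7 measured 36.5, 29.9 and 29.2 CPM across siControl against 42.4, 42.5 and 43.7 CPM across siMETTL3, a rise of 0.42 with an SE of 0.0884 (edgeR FDR 0.00202). SKP1 covers 7.88% of the TCF7 span on the opposite strand and did not pass (log2 fold change 0.10). LEF1 measured 13.1, 11.4 and 13.2 CPM with control siRNA and 17.6, 14.1 and 15.3 CPM with METTL3 siRNA. Its groups were apart, but its call rested on single libraries and settings (log2 fold change 0.32, SE 0.118, edgeR FDR 0.0461; from 0.0241 to 0.220 among the alternatives). It was lost when siMETTL3 replicate 1 (0.220), siControl replicate 2 (0.177) or siMETTL3 replicate 3 (0.0924) was left out, and with DESeq2 (adjusted p 0.0710) and an offset for span length (edgeR FDR 0.11). It was also lost without a filter on low counts (0.0514) and among genes without overlaps (0.0577). The summed level of the 4 factors was 172.1, 153.7 and 152.7 CPM in siControl and 210, 209.6 and 206.6 CPM in siMETTL3.

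**Figure D4:**
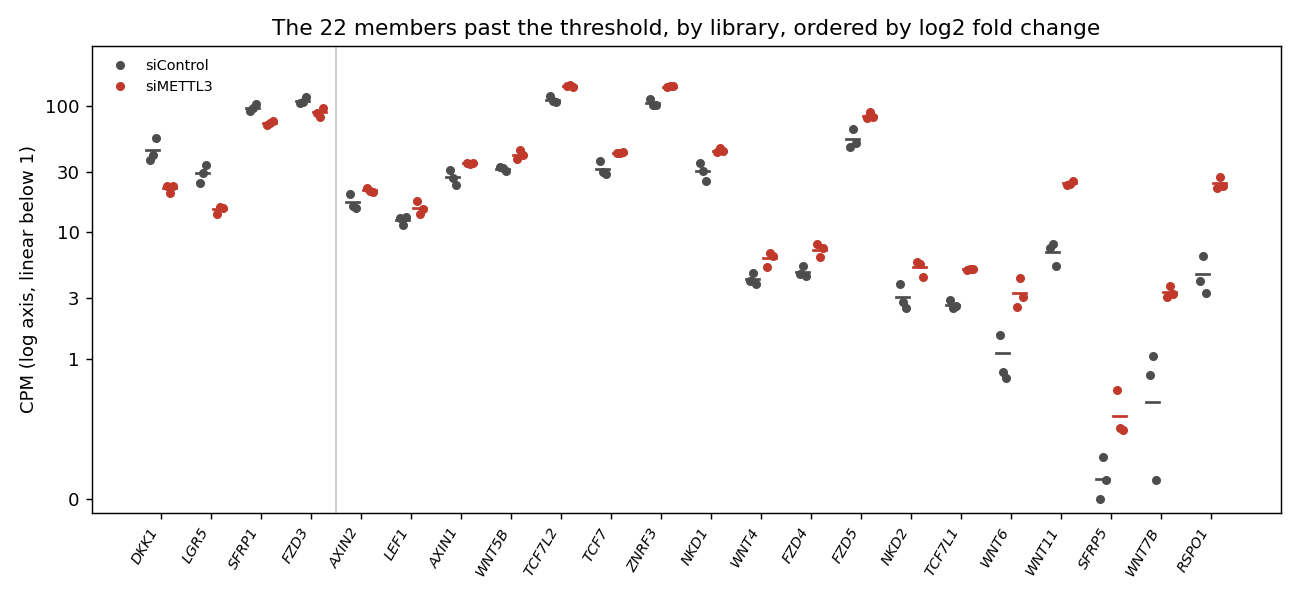
CPM in each library (y axis, log scale above 1 and linear below) of the 22 genes past the threshold, ordered by log2 fold change, with siControl in grey, siMETTL3 in red and a line at each group mean. The 4 genes left of the vertical line fell and the 18 right of it rose; the groups do not overlap in any of the 22.

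Members that are themselves known targets of beta-catenin and TCF moved in both directions. Of the 8 (AXIN2, NKD1, LEF1, TCF7, RNF43, ZNRF3, LGR5 and DKK1), 5 rose, 2 fell and RNF43 did not pass, beside 18.6% higher and 19.2% lower over all tested genes. The rises lay between 0.31 and 0.52 on the log2 scale, while DKK1 and LGR5 had log2 fold changes of -1.0 and -0.94. Of the 5 rises, those of AXIN2 and LEF1 lost their call in some alternatives. The calls of NKD1, TCF7, ZNRF3, DKK1 and LGR5 held in every alternative that gave a value. The median over the 8 genes was 0.31. The other 36 tested members held 13 higher and 2 lower calls, and their median was 0.17 on the log2 scale.

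The sequence GGACT, a frequent form of the motif at which METTL3 acts, was counted in the canonical transcript of each tested member. It was present between 0 and 20 times per transcript, most often in NKD1 and not at all in NKD2, WNT7B, SFRP5 and SFRP2. The NKD1 transcript is the longest of these at 17039 bases, so its density was 1.17 per kb. The highest density was that of LRP5, at 2.9 per kb. The median density was 1.16 per kb over the 18 members that rose, 0.581 over the 4 that fell and 1.00 over the 22 that did not pass. Over all tested genes with a transcript the medians were 0.992 for the 2745 higher genes, 0.861 for the 2814 lower genes and 0.928 for the 9032 not past. RSPO1 had 4 matches, WNT11 had 3, DKK1 had 2 and LGR5 had 3. A match is a description of the sequence; methylation of these transcripts was not analysed here.

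A wider list of 79 pathway genes outside the naming rule was read from the same fit. Of these, 71 were tested; 21 rose and 13 fell, or 29.6% and 18.3%, and the median of their log2 fold changes was 0.12. Over all genes 18.6% and 19.2% were called. Among genes for secreted and extracellular proteins, NOTUM, a feedback inhibitor that removes the lipid from WNT, rose from 2.80 ± 0.301 to 5.26 ± 0.139 CPM, with an edgeR FDR of 0.00128 and a log2 fold change of 0.91. APCDD1, another feedback inhibitor, rose from 7.19 ± 0.372 to 12.9 ± 1.14 CPM (0.84, edgeR FDR 0.000144). FRZB, a secreted Frizzled-related inhibitor like SFRP1, fell from 15.2 ± 0.907 to 9.08 ± 0.458 CPM (-0.74, edgeR FDR 0.000177). NOTUM and APCDD1 were chosen after their values were seen. WIF1, SOST, TPBG, SP5, MYC, CCND2, MSX1 and ASCL2 were the 8 genes with too few counts to test.

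The alternative WNT receptors and planar cell polarity genes held 5 rises and 3 falls among 14, or 35.7% and 21.4%, beside 18.6% and 19.2% over all genes. In 3 pairs of paralogs, those of PRICKLE, ROR and DAAM, one gene rose and the other fell, a pattern picked after the values were seen. It did not hold throughout the group. CELSR2 and CELSR3 both rose (log2 fold changes 0.58 and 0.46, edgeR FDR 7.25e-05 and 0.000959), and CELSR1, PRICKLE3, VANGL1 and VANGL2 did not pass. PRICKLE2, a cytoplasmic polarity protein, rose from 54.97 ± 7.09 to 125.4 ± 2.57 CPM, with an edgeR FDR of 2.03e-07 and a log2 fold change of 1.19, while PRICKLE1 fell from 75.8 ± 7.91 to 54.03 ± 2.91 CPM (-0.49, edgeR FDR 0.000299). ROR2, a tyrosine kinase-like receptor for WNT5A, rose from 55.6 ± 4.84 to 80.2 ± 1.24 CPM (0.53, edgeR FDR 6.19e-05), while ROR1 fell from 178.5 ± 20.6 to 120.8 ± 4.87 CPM (-0.56, edgeR FDR 7.70e-05). DAAM1, a formin that links Dishevelled to the actin skeleton, fell from 27.95 ± 1.77 to 18.7 ± 0.684 CPM (-0.58, edgeR FDR 0.000202), and DAAM2 rose from 13.6 ± 0.445 to 17.08 ± 1.06 CPM (0.33, edgeR FDR 0.0202). PRICKLE1, PRICKLE3, DAAM1, DAAM2 and the CELSR and VANGL genes were named after their values were seen. PRICKLE1 overlaps PPHLN1, PRICKLE3 overlaps PLP2 and DAAM2 overlaps MOCS1, so the counts of these genes are uncertain. In the cytoplasmic relay and destruction complex, 4 of 21 genes rose and 3 fell, or 19% and 14.3%, close to or below those shares, and GSK3B, the kinase that marks beta-catenin for degradation, did not pass (log2 fold change 0.07; also chosen after its value was seen). Of 14 nuclear cofactors 4 rose and 2 fell, or 28.6% and 14.3%. Corepressors went both ways: TLE4 fell (-0.42, edgeR FDR 0.000178), while TLE3 (0.52, edgeR FDR 6.34e-05) and CTBP2 (0.56, edgeR FDR 0.00114) rose. TLE1, TLE2 and CTBP1 did not pass (log2 fold changes -0.05, 0.36 and 0.12). CTBP2 overlaps ZRANB1, and the corepressors other than TLE4 were named after their values were seen. Of 11 tested genes known as pathway targets in many cell types, 5 rose and 3 fell, or 45.5% and 27.3%. TNFRSF19, CCND1 and PPARD had log2 fold changes of 0.82, 0.51 and 0.71, and CD44 and JUN of -1.24 and -0.85, all past the threshold; CCND1 overlaps LTO1.

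**Figure D5:**
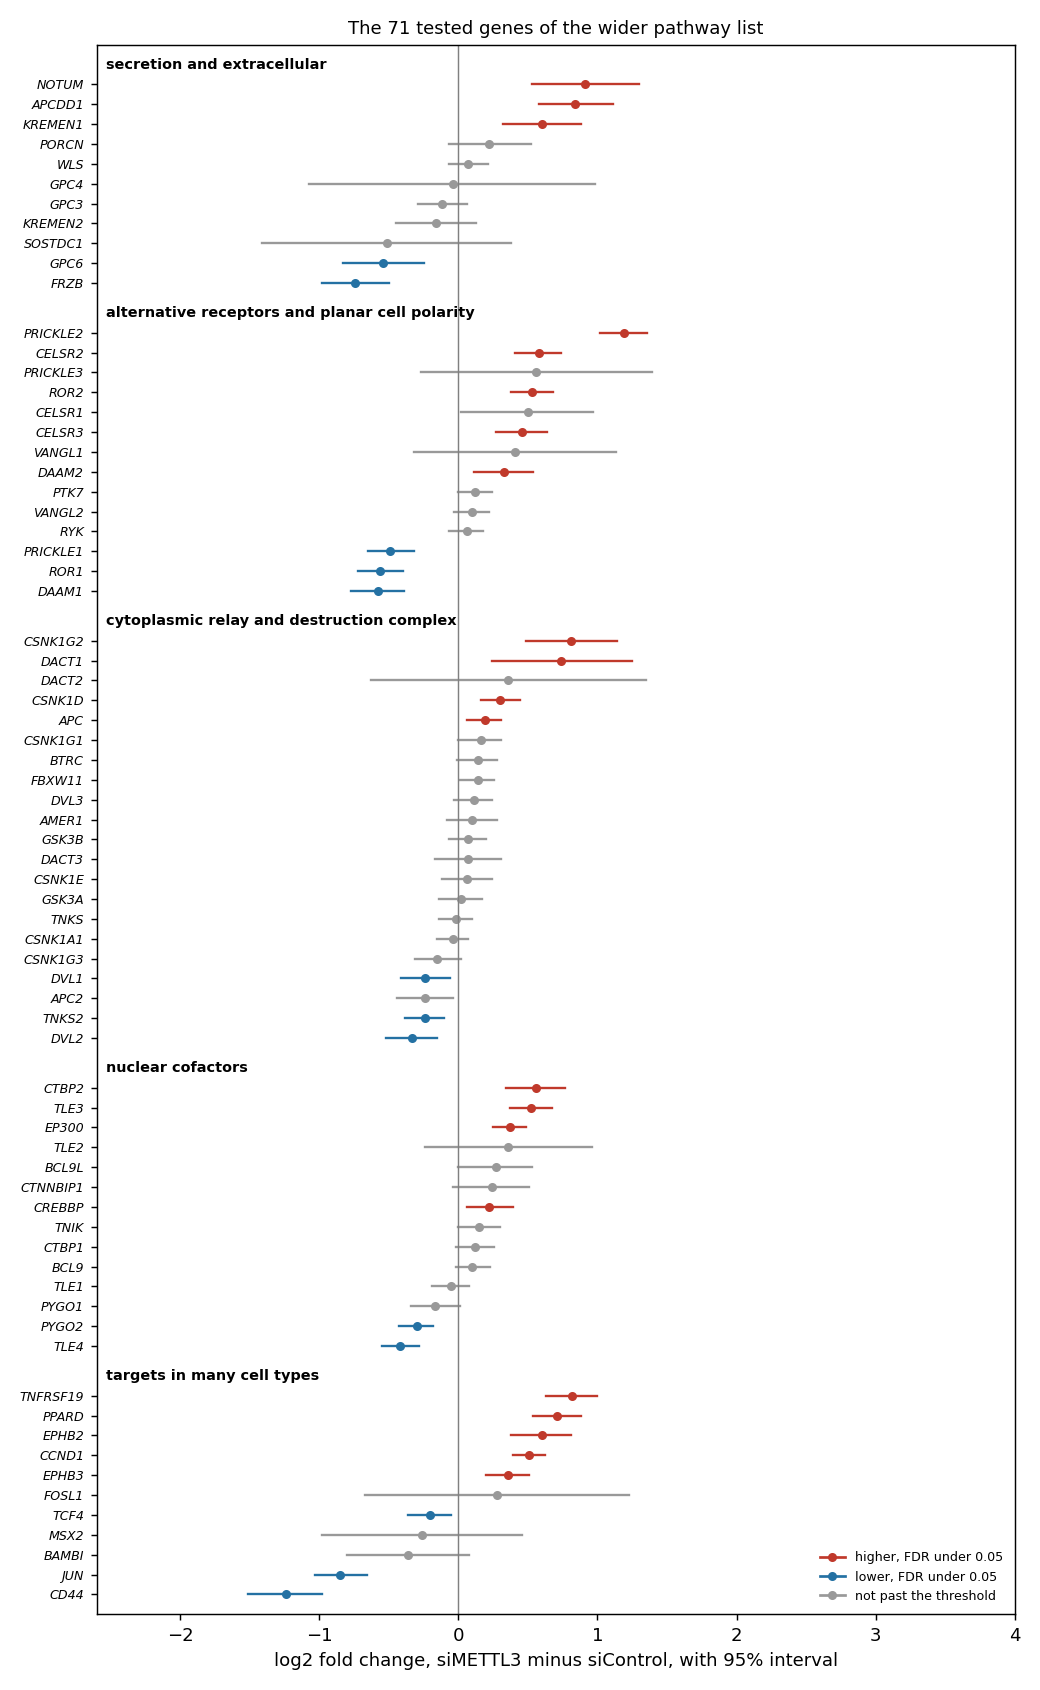
Log2 fold change (siMETTL3 minus siControl, x axis) with 95% interval of the 71 tested genes of the wider pathway list, by group. The 21 genes in red rose and the 13 in blue fell; PRICKLE2 at 1.19 and CD44 at -1.24 are the extremes.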

How the data were processed

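The authors deposited raw read counts per gene, 1 table per library. Per the file headers, the counts were made with featureCounts v1.5.3 and a protein-coding GENCODE release 33 annotation, over whole gene spans with introns, with a read over several genes counted for each and without strand or read-pair options. The submitters' processing notes also list FastQC 0.11.5, Trimmomatic 0.36, HISAT2 2.1.0 and GRCh38. Of all counts from 1 to 20, 75.9% were even, so mates of a pair appear to be counted apart. Between libraries of a group, chi-square per degree of freedom was 5.74 to 16.9 in siControl and 3.11 to 3.84 in siMETTL3, so none was counted as a duplicate. The siControl libraries thus differed more from each other than the siMETTL3 libraries did.

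From these counts, edgeR 4.0.16 in R 4.3.3 tested siMETTL3 against siControl (filterByExpr, TMM scaling, robust quasi-likelihood test, no covariate). FDR values are Benjamini-Hochberg values over all 15311 tested genes, with a threshold of 0.05. SE is the absolute log2 fold change over the square root of F. CPM and CPM per kb were computed here. The fitting script was tested on simulated counts with fewer changed genes than here, where the share of false calls lay somewhat above the threshold. Transcripts came from GENCODE release 44 (GRCh38), in which all 57 members overlapped their gene of the same symbol.

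The members, gene lists and alternatives were chosen with earlier results of these data known. Every tested member is named, with the value in every library given for called changes of at least 0.5 (log2) and for some others. The rule for the wider list took the 5 genes in each direction with the smallest FDR; other list genes named were chosen after their values were seen. Alternatives were RLE scaling, DESeq2 1.42.0, a minimum of 10 counts throughout, no filter, the replicate number as a block, genes without overlaps, an offset for span length, and each library left out in turn. A further listed noradrenergic marker is not reported here and was left out of its sum.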

Additional observations from a re-analysis of the deposited data

How the results depend on the processing

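Over the alternatives that used all 6 libraries, 141 of 146 values of the 22 called members kept their direction and call, and the other 5 kept only their direction. With 1 library left out, 117 of 132 did so and 15 lost the call; none reversed. The members called ranged from 14 to 19 higher and 4 to 5 lower with a library left out, and were 16 higher and 4 lower with DESeq2, without a filter and with at least 10 counts in every library. Among genes without overlaps, 1852 genes were higher and 1897 lower over 9517 tested, since fewer genes were tested there, and of the members 13 were higher and 3 lower. With a library left out, 2091 to 3178 genes were higher and 2119 to 3216 lower. METTL3 stayed between -0.74 and -0.65. Some sizes depended on the siControl library left out. Without siControl replicate 3, AXIN1, NKD1, DKK1 and LGR5 were at 0.28, 0.42, -0.81 and -0.82. Without siControl replicate 1, they were at 0.47, 0.65, -1.12 and -1.05. FZD5 did not follow this order (0.57 without siControl replicate 3 and 0.52 without siControl replicate 1). These genes were picked after their values were seen. The replicate block gave 18 higher and 4 lower members, -0.71 for METTL3, and 3047 higher and 3119 lower genes. Deviations of same-numbered libraries correlated at only 0.0401 to 0.0671, so the numbers were not taken as pairs, although every library correlated best with its own number. Signs reversed only among members not past the threshold, and the cause was not tested. These were CTNNB1 (-0.04), FZD2 (0.13), LRP5 (-0.03), LRP6 (-0.06) and RNF43 (-0.02) with the span offset, and RNF43 (-0.00) with DESeq2. With a library left out, log2 fold changes ran over -0.04 to 0.12 (CTNNB1), -0.58 to 0.20 (DKK2), -0.06 to 0.06 (DKK3), -0.13 to 0.33 (FZD1), -0.14 to 0.08 (FZD2), -0.01 to 0.26 (FZD7), -0.16 to 0.05 (LGR4). For the others they ran over -0.09 to 0.19 (LRP5), -0.01 to 0.03 (LRP6), -0.25 to 0.66 (RNF43), -0.86 to 0.24 (RSPO3), -0.02 to 0.22 (WNT2B), -0.14 to 0.04 (WNT3), -0.18 to 0.77 (WNT9B). Depth limits the 8 tested members with means under 1 CPM in both groups, of which only SFRP5 was called, and the 13 untested ones.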
